A study of Homo sapiens with 9 samples.

Results

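The genes described here are the subunits, activators and assembly factors of the proteasome in RPL6 knockdown hepatocellular carcinoma (HCC) cells. They were taken by name, as every protein-coding gene whose symbol begins with PSM, a letter from A to G and a number, a rule that uses no measured value. It gave 50 of the 19970 protein-coding genes in the table, which lists 60683 genes of all types. Of these, 48 are proteasome genes. The other 2 match by name only, PSMC3IP, a meiotic recombination factor that binds PSMC3, and PSME3IP1, a binding partner of PSME3.

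The data come from MHCC97H, a human HCC line of high metastatic potential, as 9 mRNA libraries in 3 groups of 3. The shRPL6-1 and shRPL6-2 groups carried 1 of a pair of lentiviral short hairpin RNAs against RPL6, a protein of the large ribosomal subunit. The shCont group carried a control hairpin, and the labels give its genotype as WT. Transduced HCC cells were selected with puromycin, per the study's methods, and no clone is named. The labels give no treatment or time for any library, and the genotype of both knockdown groups as RPL6 knockdown. Whether replicates were grown as separate cultures is not stated, and the p-values below therefore rest on a spread between libraries that could be technical.

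The proteasome degrades proteins marked with ubiquitin. Its barrel-shaped core is built from rings of alpha subunits, which gate the entrance, and rings of beta subunits, of which PSMB5, PSMB6 and PSMB7 carry the protease active sites. A regulatory particle caps the core, with a ring of ATPases that unfold the substrate and non-ATPase subunits that bind, deubiquitinate and position it. HIF-1α, the oxygen-regulated transcription factor whose stability the study examined, is one of its substrates, and mammalian proteasome genes are known to be induced together by the transcription factor NFE2L1 when proteasome activity is limiting.

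RPL6 was measured at 13.6, 12.9 and 15.8 CPM (read counts relative to the library's total, scaled between libraries by TMM, the trimmed mean of M values) with shRPL6-1 and at 12.3, 11.7 and 21.4 CPM with shRPL6-2, against 500, 518 and 478 CPM with shCont. Its log2 fold changes were -5.14 and -5.04 (standard errors 0.25 and 0.25). The 19-base targets of the hairpins, as given with the study, are shown because a member that held one could have been silenced directly.
shRPL6-1: ggugguuaaacuucgcaaa
shRPL6-2: gcuggcuaguggcuuauua
Both targets were found in RPL6 transcripts (chromosome 12), and 0 of the 50 members held an exact match to all 19 bases of either. Partial matches and other genes were not searched, so silencing through them was not tested.

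Gene counts summed to between 13638468 and 16149480 per library. Of 9 hepatocyte and HCC markers, 8 lay below 1 CPM in every library, with ALB and APOA2 listed at 0 throughout, and only the regulator HNF4A stood above it, at 4.70 to 11.3 CPM, so the defining transcripts of hepatocytes were at or near 0 in this line labelled as liver. The summed level of 4 epithelial markers (KRT8, KRT18, EPCAM and CDH1) was 2270 to 2810 CPM with shRPL6-1, 2010 to 3240 CPM with shRPL6-2 and 1430 to 2560 CPM with shCont, lowest in shCont replicates 1 and 2, and nearly all of it KRT8 and KRT18. EPCAM ran the other way, at 1.82 to 2.04, 1.05 to 1.46 and 2.36 to 2.73 CPM in these groups, and was lower with shRPL6-2 (log2 fold change -1.03 ± 0.27, adjusted p = 0.0194). The part of these markers in the results was not tested. Fibroblast markers summed to 61.1 to 66.1, 63.8 to 69.4 and 73.0 to 97.4 CPM in shRPL6-1, shRPL6-2 and shCont cells, nearly all of it COL1A1. Endothelial markers summed to 27.2 to 30.6, 18.7 to 22.3 and 30.0 to 49.8 CPM, mostly CDH5, with KDR at 0, and leukocyte markers to at most 26.1 CPM, mostly CD68, with CD3E at 0. Their part was not tested either. The shCont libraries were not alike. Across genes, the deviation of a library from the mean of all libraries correlated with transcript GC content at Spearman's rho of -0.529 and -0.512 in shCont replicates 1 and 2 but 0.245 in shCont replicate 3, against -0.113 to 0.268 with shRPL6-1 and 0.0958 to 0.581 with shRPL6-2. Results are therefore also given without shCont replicate 3 and after removal of each library's GC trend.

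Levels between genes were compared as FPKM, fragments relative to gene length and library total, which the deposited table gives per library and which rests on the authors' gene lengths. In shCont cells the highest means were those of PSMB7, a catalytic beta subunit (198 FPKM), and PSMA7, an alpha subunit (179 FPKM), followed by PSMB1 at 87.1, PSMB6 at 66.2 and PSMB4 at 61.7 FPKM. The median over the 50 members was 16.1 FPKM. Although the core holds its subunits in equal numbers, the 13 constitutive core subunits other than PSMB3 spread from 14 FPKM for PSMA1 to 198 FPKM for PSMB7. The ATPases other than PSMC4 ran from 3.77 FPKM for PSMC1 to 55.5 FPKM for PSMC3, and the non-ATPases of the regulatory particle from 6.80 to 48.5 FPKM. Assembly chaperones of the core had a median of 14.5 FPKM.

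**Figure D1:**
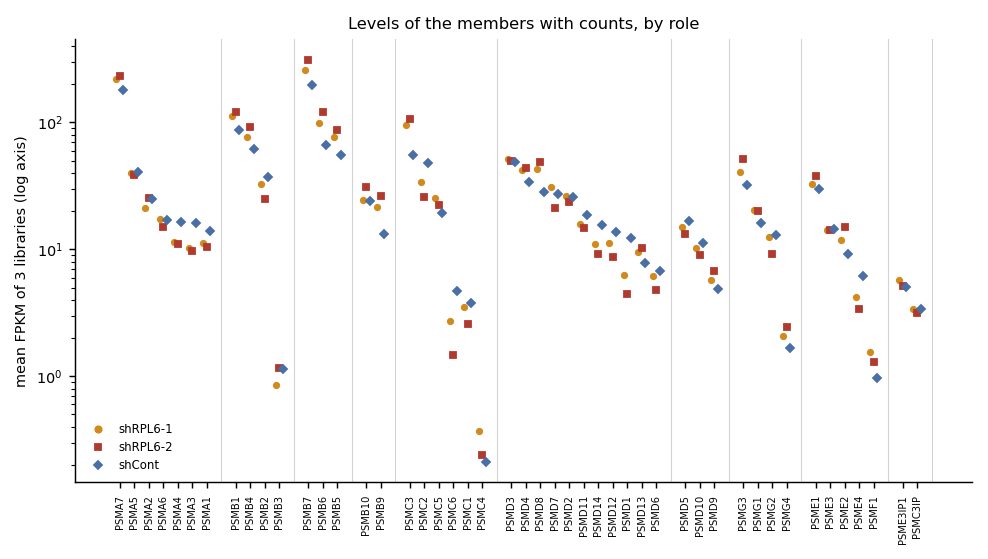
Mean FPKM of 3 libraries (log axis) for the 47 members with counts, grouped by role from left to right as core alpha, structural beta, catalytic beta, immune forms, ATPases, non-ATPases, base chaperones, core chaperones, activators with PSMF1, and the 2 matched by name; colours mark shRPL6-1, shRPL6-2 and shCont. PSMB7 and PSMA7 stand highest, at 198 and 179 FPKM in shCont, and the sparsely counted PSMC4 lowest, at 0.211 FPKM.

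Some entries call for care. PSMA8, the testis form of an alpha subunit, PSMB11, the thymus form of a catalytic subunit, and PSMB8, an interferon-induced catalytic subunit, were listed at 0 counts in all 9 libraries. TAP1, the neighbour of PSMB8 and PSMB9, was also listed at 0. PSMC4, an ATPase that every proteasome needs, had 154 counts and PSMB3, an obligatory beta subunit, 261 counts over all 9 libraries, and these low values were not read as levels in the cells. PSMC1, another ATPase of the ring, was listed at 3.77 FPKM in shCont cells, while its processed pseudogene PSMC1P1 (chr3:68635705-68637024) was listed at 63.4 to 111 FPKM, and reads of the gene and this copy may have been split between them. Of the 40 further genes with a name of this pattern that are not protein-coding, 33 are processed pseudogenes.

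After a filter on low counts, 47 of the 50 members were tested, all but PSMA8, PSMB8 and PSMB11. With shRPL6-2, 14 members were higher and 5 lower than with shCont at an adjusted p under 0.05 (edgeR's quasi-likelihood test, Benjamini-Hochberg adjustment over 16146 genes). These are 29.8% and 10.6% of those tested, while 13.3% of all genes were called higher and 14.6% lower, 27.9% in either direction. With shRPL6-1, 1 member was higher, PSMC3, and 1 lower, PSMD1, 2.13% each, against 4.44% of all genes higher and 4.07% lower, 8.51% in either direction. The median log2 fold change over the tested members was 0.18 with shRPL6-2 and 0.14 with shRPL6-1, where the median over all genes was -0.03 and -0.01. PSMC3 and PSMD1 were the members called in 1 direction with both hairpins, while 3.68% of all genes were higher with both and 3.41% lower with both. The comparisons share their shCont libraries, and in bulk RNA fewer cells of a kind and less RNA per cell cannot be told apart.

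Without shCont replicate 3, 19 members were called higher and 9 lower with shRPL6-2, when 22.0% and 21.6% of all genes were. With shRPL6-1 the numbers were 15 higher and 6 lower, and 15.6% and 13.3% over all genes. All 19 members called with shRPL6-2 and both called with shRPL6-1 were among these. Without shCont replicate 1 there were 3 higher and 2 lower members with shRPL6-2, when 4.42% and 5.10% of all genes were, and without shCont replicate 2 again 3 and 2, against 3.96% and 4.43%. With shRPL6-1 there were then 0 members, and 0.292% to 0.431% of all genes in each direction taken singly. Of the 14 members higher with shRPL6-2, shCont replicate 3 was the shCont library nearest to the hairpin libraries in 13, and of the 5 lower members in all 5. The share over all called genes was not computed, so these counts are not a result about the members. Across 17 alternative fits, the shRPL6-2 call was lost in 3 for PSMD8, 4 for PSMC2 and 6 for PSMD14. It was lost in 7 for PSMB4, PSMB9 and PSME2 and in 8 for PSMD13. For PSMB7 and PSMG4 it was lost in 10, for PSMB1 and PSMG1 in 11, for PSMA7 in 12, and for PSMA3 and PSMD9 in 13.

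The CPM ranges of the 2 groups compared did not overlap for 10 members higher and 10 lower with shRPL6-2, against 18.9% and 19.7% of all genes, and for 12 higher and 3 lower with shRPL6-1, against 16.4% and 15.2%. Of the members called with shRPL6-2, all 5 lower ones and 8 of the 14 higher ones were without overlap, and the share over all called genes was not computed. The 6 that overlapped, PSMB1, PSMB4, PSMB7, PSMB9, PSMD9 and PSME2, did so through shCont replicate 3 alone.

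**Figure D2:**
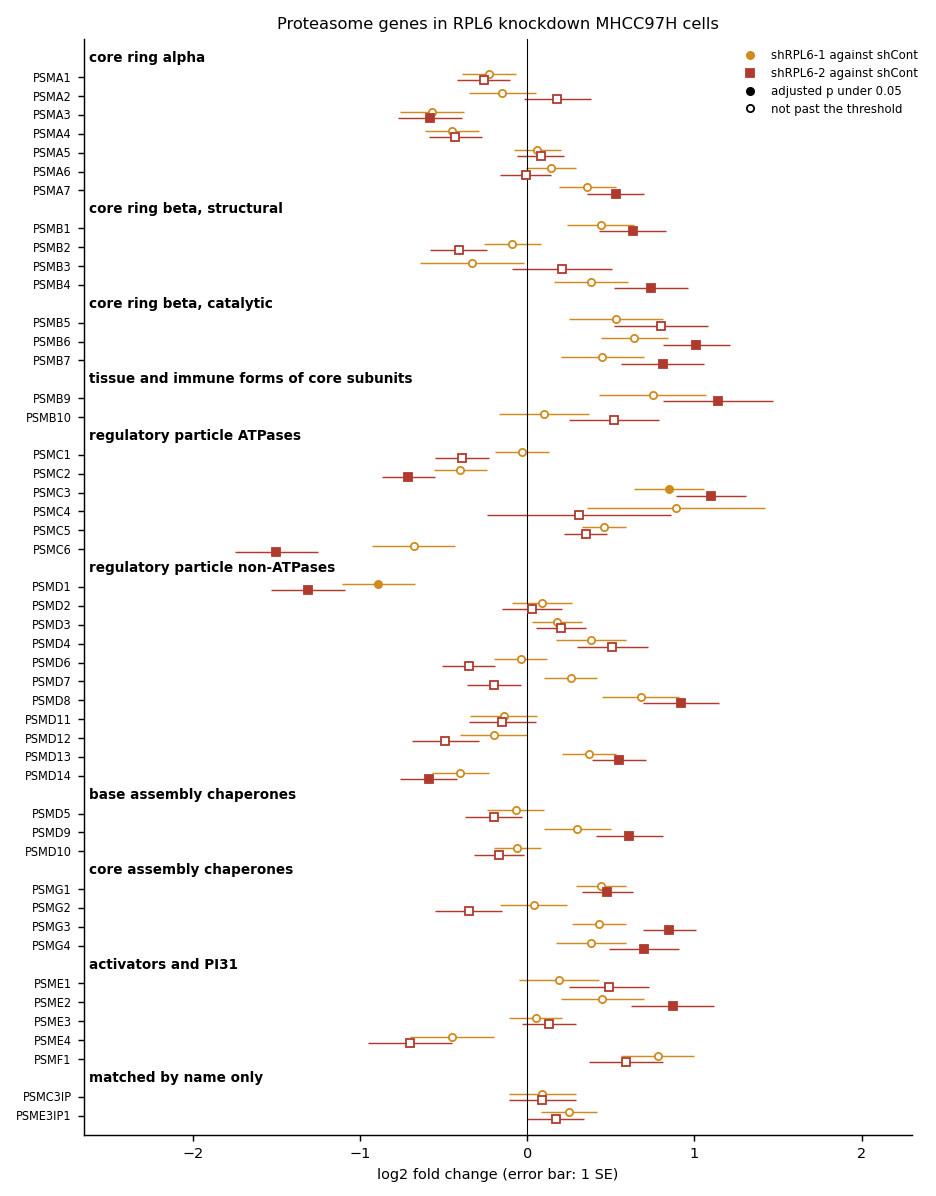
Log2 fold change (horizontal axis, bars 1 SE) of the 47 tested members by role, for shRPL6-1 and shRPL6-2 against shCont; filled symbols passed an adjusted p of 0.05. The catalytic beta subunits all lie to the right of 0, and the ATPases lie on both sides, with PSMC3 at 0.85 and 1.10 and PSMC6 at -0.68 and -1.50.

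Promoters are shown for 4 members that moved in opposite directions, PSMC3 and PSMD8, which were higher, and PSMD1 and PSMC6, which were lower. Each stretch runs from 250 to 51 bases before the start that RefSeq annotates (GRCh38.p14), 5′ to 3′ on the strand of the gene. Capitals mark CCAAT, the box bound by NF-Y, and CCGGAA, the core of ETS factor sites, on either strand.
PSMC3 (chr11:47426490-47426689, minus strand): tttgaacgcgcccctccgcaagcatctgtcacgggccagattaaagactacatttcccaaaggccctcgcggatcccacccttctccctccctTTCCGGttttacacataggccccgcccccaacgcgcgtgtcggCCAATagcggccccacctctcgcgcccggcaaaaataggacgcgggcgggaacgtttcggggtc
PSMD8 (chr19:38374321-38374520, plus strand): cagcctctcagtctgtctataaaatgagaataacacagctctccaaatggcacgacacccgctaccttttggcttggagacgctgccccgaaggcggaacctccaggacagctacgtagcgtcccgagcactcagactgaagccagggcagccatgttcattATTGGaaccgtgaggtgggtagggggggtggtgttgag
PSMD1 (chr2:231056617-231056816, plus strand): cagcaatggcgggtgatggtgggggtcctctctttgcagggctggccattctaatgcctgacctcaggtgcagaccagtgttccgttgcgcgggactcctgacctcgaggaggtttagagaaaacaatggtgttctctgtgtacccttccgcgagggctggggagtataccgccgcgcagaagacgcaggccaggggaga
PSMC6 (chr14:52706950-52707149, plus strand): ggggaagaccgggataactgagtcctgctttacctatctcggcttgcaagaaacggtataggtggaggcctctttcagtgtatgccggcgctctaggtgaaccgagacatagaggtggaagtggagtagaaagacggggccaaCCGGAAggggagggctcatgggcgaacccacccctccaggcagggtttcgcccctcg
The PSMC3 stretch holds CCGGAA on its reverse strand and CCAAT, the PSMD8 stretch CCAAT on its reverse strand, the PSMC6 stretch CCGGAA, and the PSMD1 stretch neither. The GC content of the PSMC3 and PSMC6 stretches was 62.5% and 59.0%, while that of their transcripts was 55.9% and 38.1%.

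A set of 5 motifs was searched on both strands in 300 bases from 250 before to 50 after the start, in the 44 members with a RefSeq promoter and in 35116 promoters in all. Each member was counted with 1 promoter, whereas the 35116 were limited neither to 1 per gene nor to protein-coding genes. The shares below therefore come from unlike sets, and whether the motifs are more frequent in the members than in comparable genes was not tested. PSMA7, PSMB1, PSMB6, PSMB7, PSMD4 and PSMG3 were not matched. All of these but PSMD4 were called higher with shRPL6-2, so the split by call below holds 9 of the 14 higher members. CCGGAA was in 20 of the 44 (45.5%, against 17.2% of all promoters) and CCAAT in 21 (47.7%, against 34.6%). TGACNNNGC, the core of the antioxidant response element that NFE2L1 and NFE2L2 bind, was in 13 (29.5%, against 13.3%). GGGCGG, the GC box, was in 30 (68.2%, against 45%), and TTCNNTTTC, the core of the interferon-stimulated response element, in 7 (15.9%, against 8.11%). No pair of these motifs contains another, and matches may overlap. By call with shRPL6-2, TGACNNNGC was in 4 of 9 higher, 1 of 5 lower and 8 of 27 uncalled promoters, CCGGAA in 5, 3 and 11 of them, CCAAT in 4, 3 and 13, GGGCGG in 7, 3 and 18, and TTCNNTTTC in 3, 1 and 3. A match is a run of letters and not a measured site.

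Of the 3 catalytic beta subunits, PSMB6 and PSMB7 were higher with shRPL6-2 and PSMB5 did not pass, and none passed with shRPL6-1, where all 3 fold changes were positive. Beside this and the counts by role below, 13.3% of all genes were higher and 14.6% lower with shRPL6-2. With shRPL6-1 these shares were 4.44% and 4.07%. PSMB6, which cuts after acidic residues (chr17:4796144-4798502), stood at 302, 268 and 233 CPM with shRPL6-1 and 310, 397 and 326 CPM with shRPL6-2, against 141, 152 and 221 CPM with shCont. Every hairpin library exceeded every shCont library. The log2 fold change was 1.01 ± 0.20 with shRPL6-2 (SE, adjusted p = 0.00783) and 0.64 ± 0.20 with shRPL6-1 (adjusted p = 0.0675), and the shRPL6-2 call was kept in all 17 alternative fits.

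PSMB7, which cuts after basic residues (chr9:124353465-124415444), stood at 779, 609 and 707 CPM with shRPL6-1 and 901, 1130 and 657 CPM with shRPL6-2, against 424, 416 and 696 CPM with shCont. Here shCont replicate 3 lay among the hairpin libraries. PSMB7 was higher with shRPL6-2 (log2 fold change 0.81 ± 0.25, adjusted p = 0.0339), a call lost in 10 of 17 alternative fits. It was not past the threshold with shRPL6-1 (0.45 ± 0.25, adjusted p = 0.251). PSMB5, which cuts after hydrophobic residues and is the main target of proteasome inhibitor drugs (chr14:23016543-23035230), stood at 295, 212 and 251 CPM with shRPL6-1 and 337, 371 and 208 CPM with shRPL6-2, against 125, 153 and 247 CPM with shCont. Its groups overlapped through shCont replicate 3, and its log2 fold changes of 0.53 ± 0.28 and 0.80 ± 0.28 did not pass (adjusted p = 0.232 and 0.0528). Together the 3 catalytic subunits took 0.136, 0.108 and 0.120% of all counts with shRPL6-1 and 0.150, 0.171 and 0.116% with shRPL6-2, against 0.0758, 0.0788 and 0.114% with shCont.

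Interferon-induced counterparts can replace the catalytic subunits and form the immunoproteasome, which favours peptides for antigen presentation. PSMB9, the counterpart of PSMB6, stood at 116, 80.6 and 101 CPM with shRPL6-1 and 135, 173 and 81.6 CPM with shRPL6-2, against 46.1, 42.4 and 88.6 CPM with shCont. The lowest hairpin libraries lay below shCont replicate 3. PSMB9 was higher with shRPL6-2 (log2 fold change 1.14 ± 0.33, adjusted p = 0.0273) and did not pass with shRPL6-1 (0.75 ± 0.32, adjusted p = 0.154). PSMB10, the counterpart of PSMB7, stood at 80.1, 63.2 and 71.5 CPM with shRPL6-1 and 96.4, 124 and 65.5 CPM with shRPL6-2, against 53.1, 52.6 and 94.1 CPM with shCont. It did not pass with either hairpin (log2 fold change 0.10 ± 0.27 and 0.52 ± 0.27). An overlapping gene, AC040162.1, held 16.9% as many counts as PSMB10.

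Set against its constitutive partner within each library, PSMB10 was 9.58, 9.64 and 9.43% of PSMB7 in FPKM with shRPL6-1 and 9.97, 10.2 and 9.28% with shRPL6-2, against 11.7, 11.8 and 12.6% with shCont. All 6 hairpin libraries lay below all 3 shCont libraries (exact two-sided permutation test, p = 0.1 for each hairpin, the smallest that 3 against 3 allows, adjusted p = 0.2 over 4 such tests). PSMB9 was 22.7, 17.8 and 25.7% of PSMB6 with shRPL6-1 and 25.7, 25.6 and 14.8% with shRPL6-2, against 19.3, 16.5 and 23.6% with shCont, and the groups overlapped (exact two-sided permutation test, p = 0.5 and 0.6, adjusted p = 0.6 for both). Of 6 antigen presentation genes and inducers of the immune subunits, TAP1 was not tested and none of the other 5 (TAP2, TAPBP, B2M, IRF1 and NLRC5) passed with either hairpin in edgeR's test, their median log2 fold change being 0.22 with shRPL6-1 and 0.16 with shRPL6-2. B2M, the light chain of class I molecules, stood at 436, 360 and 341 CPM with shRPL6-1 and 134, 917 and 565 CPM with shRPL6-2, against 592, 250 and 133 CPM with shCont, and the groups overlapped. TAP2, a subunit of the peptide transporter, stood at 18.6, 19.1 and 16.8 CPM with shRPL6-1 and 11.3, 18.6 and 12.7 CPM with shRPL6-2, against 16.1, 10.5 and 14.9 CPM with shCont.

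Of the 4 structural beta subunits, PSMB1 and PSMB4 were higher with shRPL6-2 and PSMB2 and PSMB3 did not pass. PSMB4 stood at 576, 504 and 495 CPM with shRPL6-1 and 668, 845 and 508 CPM with shRPL6-2, against 355, 342 and 514 CPM with shCont. Its log2 fold change was 0.74 ± 0.22 with shRPL6-2 (adjusted p = 0.0301) and 0.38 ± 0.22 with shRPL6-1 (adjusted p = 0.267). PSMB1 stood at 323, 255 and 271 CPM with shRPL6-1 and 333, 377 and 259 CPM with shRPL6-2, against 186, 179 and 261 CPM with shCont, with log2 fold changes of 0.44 ± 0.20 and 0.63 ± 0.20. In both genes the overlap came from shCont replicate 3. PSMB2 had a negative value with shRPL6-2, -0.41 ± 0.17 (adjusted p = 0.0994).

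The 7 constitutive alpha subunits split, with 1 higher, 1 lower and 5 not called with shRPL6-2, and a median log2 fold change of -0.01. PSMA7 was the higher one, at 766, 677 and 684 CPM with shRPL6-1 and 793, 932 and 674 CPM with shRPL6-2, against 507, 491 and 660 CPM with shCont. No hairpin library fell below a shCont library, and the log2 fold change was 0.53 ± 0.17 with shRPL6-2 (adjusted p = 0.0419) and 0.36 ± 0.17 with shRPL6-1 (adjusted p = 0.193). PSMA3 was the lower one, at 55.1, 51.5 and 57.2 CPM with shRPL6-1 and 68.6, 44.3 and 50.2 CPM with shRPL6-2, against 91.4, 83.0 and 68.8 CPM with shCont. Its groups did not overlap, though the highest shRPL6-2 library and shCont replicate 3 nearly met. The log2 fold change was -0.58 ± 0.19 with shRPL6-2 (adjusted p = 0.0438) and -0.57 ± 0.19 with shRPL6-1 (adjusted p = 0.0812), and after GC correction the shRPL6-2 value was -0.10 (adjusted p = 0.662). The antisense gene PSMA3-AS1, which overlaps it, held 24.6% as many counts, and since the strand setting of the counting is not given, reads of the pair cannot be told apart.

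The 6 ATPases moved in opposite directions with shRPL6-2, 1 higher and 2 lower. PSMC3 (ENSG00000165916, chr11:47418769-47426473) stood at 417, 348 and 392 CPM with shRPL6-1 and 438, 546 and 394 CPM with shRPL6-2, against 181, 181 and 282 CPM with shCont. Every hairpin library lay above every shCont library. PSMC3 rose with both hairpins, by a log2 fold change of 0.85 ± 0.21 with shRPL6-1 (adjusted p = 0.0345) and 1.10 ± 0.21 with shRPL6-2 (adjusted p = 0.00664). The shRPL6-2 call was kept in all 17 alternative fits, and the shRPL6-1 call was lost in 8 of them, among them the 2 that left out shCont replicate 1 (adjusted p = 0.141) or 2 (adjusted p = 0.145).

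PSMC6 (ENSG00000100519, chr14:52707178-52728590) had the most negative value of the 47. It stood at 31.0, 33.3 and 39.3 CPM with shRPL6-1 and 23.2, 15.3 and 19.9 CPM with shRPL6-2, against 66.4, 63.3 and 35.9 CPM with shCont. The shRPL6-2 libraries lay below all others, and the shRPL6-1 libraries overlapped shCont replicate 3. The log2 fold change was -1.50 ± 0.25 with shRPL6-2 (adjusted p = 0.00498) and -0.68 ± 0.25 with shRPL6-1 (adjusted p = 0.102), and after GC correction it was -0.98 with shRPL6-2 (adjusted p = 0.00171). PSMC2 stood at 144, 136 and 158 CPM with shRPL6-1 and 126, 105 and 121 CPM with shRPL6-2, against 210, 211 and 156 CPM with shCont. It was lower with shRPL6-2 (log2 fold change -0.71 ± 0.16, adjusted p = 0.0124, and -0.33 after GC correction, adjusted p = 0.0371), and -0.40 ± 0.16 with shRPL6-1 did not pass (adjusted p = 0.136). Its overlapping neighbour DNAJC2 held 38.4% as many counts.

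PSMC5 had log2 fold changes of 0.46 ± 0.13 and 0.35 ± 0.13 and did not pass with either hairpin (adjusted p = 0.0582 and 0.0725), although its hairpin libraries lay above its shCont libraries. FTSJ3, which overlaps it, held 82.3% as many counts.

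**Figure D3:**
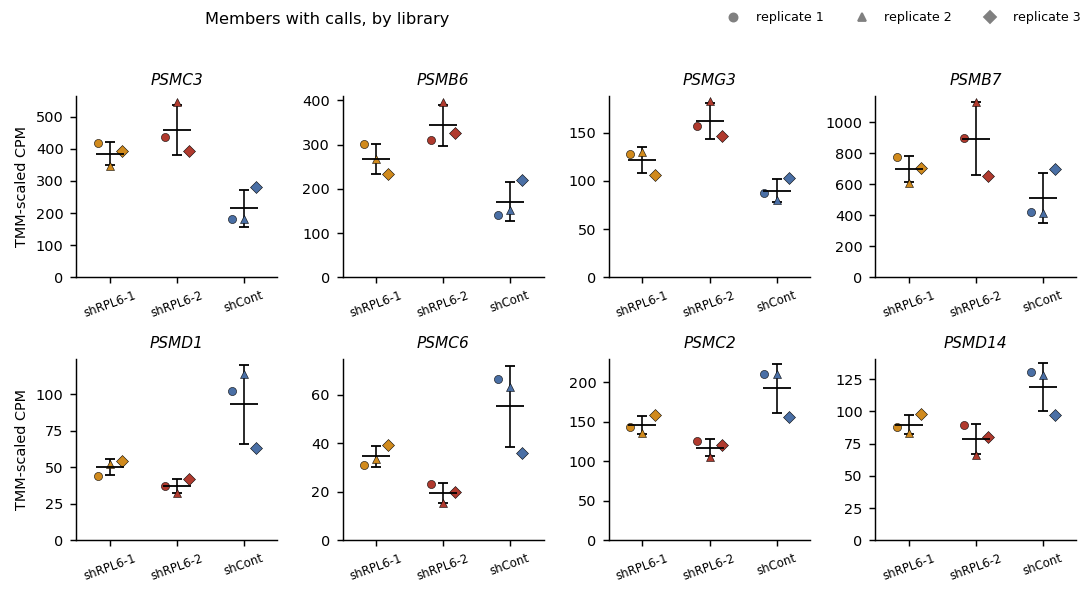
TMM-scaled CPM of each library (symbols by replicate number, black line and bars mean and SD, n = 3) for 8 members called with shRPL6-2, with shRPL6-1 and shRPL6-2 to the left of shCont. In the upper 4 panels shCont replicate 3 is the highest shCont library, and in the lower 4 the lowest, as in PSMD1 with 62.8 CPM against 102 and 114 CPM in shCont replicates 1 and 2.

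Among the 11 non-ATPase subunits, 2 were higher and 2 lower with shRPL6-2. PSMD1, the scaffold of the base that holds ubiquitin receptors (ENSG00000173692, chr2:231056864-231172827), stood at 43.6, 52.0 and 54.3 CPM with shRPL6-1 and 37.3, 32.4 and 42.2 CPM with shRPL6-2, against 102, 114 and 62.8 CPM with shCont. Every hairpin library lay below every shCont library. PSMD1 fell with both hairpins, by a log2 fold change of -0.89 ± 0.22 with shRPL6-1 (adjusted p = 0.0365) and -1.31 ± 0.22 with shRPL6-2 (adjusted p = 0.00500). With shRPL6-1 that call was lost in 9 of 17 alternative fits, among them those without shCont replicate 1 (adjusted p = 0.129) or 2 (adjusted p = 0.140), and with shRPL6-2 in none.

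PSMD14, the deubiquitinase that removes ubiquitin chains from substrates, stood at 87.7, 83.6 and 98.1 CPM with shRPL6-1 and 89.7, 66.5 and 80.1 CPM with shRPL6-2, against 131, 128 and 97.6 CPM with shCont. It was lower with shRPL6-2 (log2 fold change -0.59 ± 0.17, adjusted p = 0.0297), and the shRPL6-1 libraries overlapped shCont replicate 3. PSMD8, a lid subunit, stood at 300, 263 and 258 CPM with shRPL6-1 and 314, 387 and 273 CPM with shRPL6-2, against 138, 136 and 239 CPM with shCont, with no overlap. It was higher with shRPL6-2 (0.92 ± 0.23, adjusted p = 0.0167), as was the lid subunit PSMD13 (0.55 ± 0.16, adjusted p = 0.0295). The ubiquitin receptor PSMD4 had 0.38 ± 0.21 and 0.51 ± 0.21 and did not pass. The log2 fold changes of PSMD2, PSMD3, PSMD6, PSMD7, PSMD11 and PSMD12 lay between -0.49 and 0.26, and none passed.

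Of the 4 chaperones that assemble the core, 3 were higher with shRPL6-2. The calls of PSMG1 and PSMG4 were lost in 11 and 10 of 17 alternative fits, and that of PSMG3 in none. PSMG3, which helps to build the alpha ring, stood at 128, 130 and 106 CPM with shRPL6-1 and 157, 183 and 147 CPM with shRPL6-2, against 86.9, 80 and 103 CPM with shCont. The shRPL6-2 libraries stood apart, and shRPL6-1 replicate 3 lay just above shCont replicate 3. The log2 fold change was 0.85 ± 0.16 with shRPL6-2 (adjusted p = 0.00720) and 0.43 ± 0.16 with shRPL6-1 (adjusted p = 0.114), and after GC correction it was 0.53 with shRPL6-2 (adjusted p = 0.00770). PSMG4, its partner, stood at 26.6, 30.5 and 28.0 CPM with shRPL6-1 and 36.3, 41.2 and 28.6 CPM with shRPL6-2, against 23.8, 16.3 and 25.4 CPM with shCont (0.70 ± 0.21 with shRPL6-2, adjusted p = 0.0313), and an overlapping gene, SLC22A23, held 19.9% as many counts. PSMG1 was also higher (0.48 ± 0.15, adjusted p = 0.0352), and its partner PSMG2 had -0.35 ± 0.20 and did not pass. Its counts are uncertain, since SPIRE1, which overlaps it, held 80.2% as many.

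Of the 3 chaperones that assemble the base, PSMD9 was higher with shRPL6-2. It stood at 91.5, 83.5 and 78.0 CPM with shRPL6-1 and 108, 121 and 84.3 CPM with shRPL6-2, against 59.9, 57.7 and 87.5 CPM with shCont, whose replicate 3 lay among the hairpin libraries. The log2 fold change with shRPL6-2 was 0.61 ± 0.20 (adjusted p = 0.0433), and after GC correction it was 0.42 (adjusted p = 0.0518). PSMD5 and PSMD10 had values between -0.20 and -0.06 and did not pass.

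Activators open the core without ATP. Of these and the core-binding regulator PSMF1, only PSME2 passed. PSME2, which forms an interferon-induced ring with PSME1, stood at 147, 108 and 134 CPM with shRPL6-1 and 186, 215 and 120 CPM with shRPL6-2, against 84.2, 77.7 and 124 CPM with shCont. The log2 fold change was 0.87 ± 0.25 with shRPL6-2 (adjusted p = 0.0269) and 0.45 ± 0.25 with shRPL6-1 (adjusted p = 0.251). Its locus also holds AL136295.5 and RNF31, with 36.1% and 10.1% as many counts, and its pseudogene PSME2P2 had 1170 counts in all. PSME1 had 0.19 ± 0.24 and 0.49 ± 0.24, the nuclear activator PSME3 0.05 ± 0.16 and 0.13 ± 0.16, and PSME4 -0.45 ± 0.25 and -0.70 ± 0.25. PSMF1 stood at 30.9, 33.9 and 27.1 CPM with shRPL6-1 and 19.6, 25.2 and 35.5 CPM with shRPL6-2, against 19.1, 15.7 and 18.6 CPM with shCont. It had 0.78 ± 0.22 with shRPL6-1 and 0.59 ± 0.22 with shRPL6-2 (adjusted p = 0.0525 and 0.0688) and its hairpin libraries lay above its shCont libraries. The genes matched by name only did not pass. PSMC3IP stood at 20.5, 15.8 and 24.7 CPM with shRPL6-1 and 21.7, 21.3 and 17.6 CPM with shRPL6-2, against 20.1, 19.8 and 17.3 CPM with shCont (log2 fold changes 0.09 and 0.09), and MLX, which overlaps it, held more counts than it did. PSME3IP1 stood at 56.1, 62.4 and 67.0 CPM with shRPL6-1 and 55.1, 50.6 and 70.1 CPM with shRPL6-2, against 56.0, 49.2 and 50.6 CPM with shCont (0.25 and 0.17).

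The hairpins were also set against each other. Between shRPL6-2 and shRPL6-1, 0 of the 47 members passed in edgeR's test, where 0.384% of all genes did, and 0 passed in DESeq2. At an unadjusted p under 0.05 there were 1 higher and 3 lower members in each of the tools, against 10.9% of all genes in edgeR and 5.89% in DESeq2. The nearest to the threshold was PSMC6 (shRPL6-2 over shRPL6-1, log2 fold change -0.83, adjusted p = 0.257). That many more members passed with shRPL6-2 than with shRPL6-1 is therefore not shown to be a difference between the hairpins.

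Together the 50 members took 0.843, 0.767 and 0.802% of all counts with shRPL6-1 and 0.854, 0.880 and 0.758% with shRPL6-2, against 0.714, 0.727 and 0.759% with shCont. The shRPL6-1 libraries lay above the shCont libraries, and shRPL6-2 replicate 3 lay at the level of shCont replicate 3. The ratio of means over the 48 proteasome genes was 1.10 with shRPL6-1 and 1.13 with shRPL6-2. The alpha subunits took a mean of 0.163, 0.165 and 0.166% in shRPL6-1, shRPL6-2 and shCont cells, and the catalytic subunits 0.121, 0.145 and 0.0896%.

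The fold changes of the members ran with the GC content of their transcripts. Over the 47 tested members, Pearson's r between log2 fold change and GC content was 0.676 with shRPL6-1 and 0.750 with shRPL6-2 (Spearman's rho 0.700 and 0.776), and over 15996 genes it was 0.273 and 0.419. These are descriptions across genes, which share their libraries and are not independent replicates. The 14 members higher with shRPL6-2 had a median GC content of 52.2% and the 5 lower ones 43.1%. Of 13 members under 45% GC, 0 were higher and 4 lower with shRPL6-2, 30.8% of them against 29.6% of all genes of that range. Of 27 members from 45 to 55%, 10 were higher and 1 lower, 37.0% and 3.70%, when 12.5% and 13.2% of all genes of that range were. Of the 7 members at 55% or more, 4 were higher, 57.1% against 22.7%.

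Once each library's GC trend was removed, 14 members were again higher and 5 lower with shRPL6-2, and 13.0% of all genes were higher and 13.7% lower. Of these, 13 of the higher and 4 of the lower were called before the correction too. PSMD9 and PSMA3 dropped out, and PSMA5 (log2 fold change 0.53, adjusted p = 0.0283) and PSMC1 (-0.36, adjusted p = 0.0407), which NRDE2 overlaps with 62.3% as many counts, came in. With shRPL6-1 the correction gave 6 higher members, PSMC3, PSMB6, PSMC5, PSMD8, PSMF1 and PSMG1, and 1 lower, PSMD1, against 8.44% and 7.84% of all genes. Pearson's r with GC content was then 0.411 and 0.458 over the members and 0.00821 and 0.0113 over all genes.

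**Figure D4:**
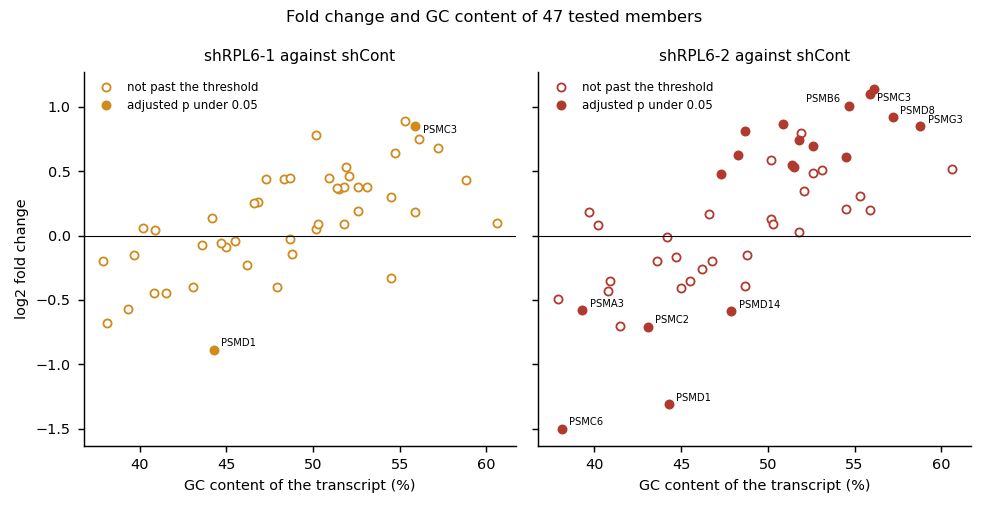
Log2 fold change against GC content of the transcript (%) for the 47 tested members, with shRPL6-1 against shCont on the left and shRPL6-2 against shCont on the right; filled points passed an adjusted p of 0.05. Fold changes are higher at higher GC content, with Pearson's r of 0.676 on the left and 0.750 on the right, across genes that are not independent.

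Genes around the proteasome were described from 6 further lists. Their counts stand beside 4.44% of all genes higher and 4.07% lower with shRPL6-1, and 13.3% and 14.6% with shRPL6-2. With both hairpins 3.68% of all genes were higher and 3.41% lower. Of 12 proteasome genes with other names, 2 were higher with both hairpins, PITHD1, a proteasome-binding factor, and ADRM1, a ubiquitin receptor of the base. ADRM1 stood at 527, 530 and 457 CPM with shRPL6-1 and 500, 632 and 464 CPM with shRPL6-2, against 244, 238 and 386 CPM with shCont. Its log2 fold changes were 0.80 ± 0.21 (adjusted p = 0.0428) and 0.88 ± 0.21 (adjusted p = 0.0145), and every hairpin library lay above shCont. After GC correction they were 0.63 and 0.47, and the shRPL6-2 call was lost without shCont replicate 1 or 2 (adjusted p = 0.0609 and 0.0633) or shRPL6-2 replicate 2 (adjusted p = 0.0546). PITHD1 stood at 70.5, 84.2 and 69.2 CPM with shRPL6-1 and 71.4, 76.4 and 74.4 CPM with shRPL6-2, against 48.9, 45.6 and 44.8 CPM with shCont, with log2 fold changes of 0.69 ± 0.14 (adjusted p = 0.0224) and 0.67 ± 0.14 (adjusted p = 0.00971). The proteasome-bound deubiquitinase USP14, singled out after its values were seen, stood at 65.8, 85.6 and 112 CPM with shRPL6-1 and 22.4, 19.9 and 42.1 CPM with shRPL6-2, against 172, 167 and 98.8 CPM with shCont. It was lower with shRPL6-2 (-2.37 ± 0.33, adjusted p = 0.00268), did not pass with shRPL6-1 (-0.73 ± 0.31, adjusted p = 0.153), and the difference between the hairpins did not pass (-1.64 ± 0.32, adjusted p = 0.0736). UBE3C, a ubiquitin ligase, was also lower with shRPL6-2 (-0.57 ± 0.16, adjusted p = 0.0288), a call lost in 7 of 17 alternative fits, among them those without shCont replicate 1 or 2 (adjusted p = 0.0825 and 0.114) and without shRPL6-2 replicate 1 or 2 (adjusted p = 0.0791 and 0.0986). The deubiquitinase UCHL5 passed only just (-0.55 ± 0.19, adjusted p = 0.0488). Its value was -0.07 after GC correction (adjusted p = 0.673), and the call was lost in 14 of 17 alternative fits, with every library left out other than shCont replicate 3 (adjusted p = 0.0596 to 0.159).

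Among 11 genes that deliver substrates, 2 were lower with shRPL6-1 and 3 with shRPL6-2, when 4.07% and 14.6% of all genes were. UBQLN2, a shuttle that carries ubiquitinated proteins to the proteasome, was lower with both hairpins, at 60.7, 70.5 and 65.5 CPM and at 52.9, 46.4 and 66.1 CPM, against 108, 113 and 85.8 CPM with shCont (-0.64 ± 0.18, adjusted p = 0.0492, and -0.89 ± 0.18, adjusted p = 0.00802). After GC correction the values were -0.47 and -0.59.

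A list of 10 genes held NFE2L1 and genes listed for the control of its response, not the genes it induces. NFE2L1 itself did not pass (0.33 ± 0.14 and 0.16 ± 0.14). MAFK, a small partner protein of NFE2L1, was higher with shRPL6-2 (0.82 ± 0.27, adjusted p = 0.0417) and did not pass with shRPL6-1 (0.45 ± 0.26). The shRPL6-2 libraries of MAFK, at 658, 616 and 444 CPM, overlapped shCont, at 258, 249 and 468 CPM. Its call was lost in 11 of 17 alternative fits, among them GC correction (0.44, adjusted p = 0.0681) and the fits without shCont replicate 1 or 2 (adjusted p = 0.139 and 0.141), shRPL6-2 replicate 1 or 2 (adjusted p = 0.125 and 0.115) and shRPL6-1 replicate 1 or 3 (adjusted p = 0.0554 and 0.0599). NFE2L2, the oxidative stress factor, was lower with both hairpins, at 35.8, 51.5 and 38.8 CPM with shRPL6-1 and 39.9, 27.4 and 48.1 CPM with shRPL6-2, against 133, 124 and 55.1 CPM with shCont (-1.31 ± 0.32, adjusted p = 0.0356, and -1.44 ± 0.32, adjusted p = 0.0116), the second call lost without shCont replicate 2 (adjusted p = 0.0506). Of 5 ubiquitin genes and activating enzymes, UBB was higher and UBA6 lower with shRPL6-2, and none passed with shRPL6-1. UBB stood at 597, 522 and 512 CPM with shRPL6-1 and 634, 834 and 581 CPM with shRPL6-2, against 314, 315 and 511 CPM with shCont (0.52 ± 0.22 and 0.85 ± 0.22). Its shRPL6-2 call was lost without shCont replicate 1 or 2 (adjusted p = 0.0761 and 0.0781) or shRPL6-2 replicate 2 (adjusted p = 0.0723). UBA6, an enzyme that activates ubiquitin, stood at 33.4, 38.0 and 38.5 CPM with shRPL6-1 and 31.7, 23.4 and 35.7 CPM with shRPL6-2, against 61.8, 57.7 and 37.7 CPM with shCont (-0.52 ± 0.22 and -0.79 ± 0.22). Its shRPL6-2 call (adjusted p = 0.025) was lost after GC correction (adjusted p = 0.0743), without shCont replicate 1 or 2 (adjusted p = 0.0967 and 0.0905) and without shRPL6-2 replicate 1 or 2 (adjusted p = 0.0645 and 0.0918). Of the 4 genes VHL, MDM2, FBXW7 and RACK1, which act in HIF-1α turnover, MDM2 was lower with both hairpins, at 37.4, 42.2 and 40.5 CPM with shRPL6-1 and 33.8, 32.9 and 48.8 CPM with shRPL6-2, against 85.0, 91.1 and 48.6 CPM with shCont (-0.90 ± 0.24, adjusted p = 0.0466, and -0.96 ± 0.24, adjusted p = 0.0182). Its highest shRPL6-2 library overlapped shCont replicate 3. After GC correction the values of MDM2 were -0.59 and -0.48, and its shRPL6-2 call was lost without shCont replicate 1 or 2 (adjusted p = 0.0708 and 0.0784) and without shRPL6-2 replicate 1 or 2 (adjusted p = 0.068 and 0.0717). The other 3 did not pass with either hairpin.

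The shRPL6-1 calls of the genes called with both hairpins in these lists, ADRM1, PITHD1, UBQLN2, NFE2L2 and MDM2, were lost in 6 to 10 of 17 alternative fits and their shRPL6-2 calls in 0 to 6. Leaving out shCont replicate 1 or 2 or any shRPL6-1 replicate ended the shRPL6-1 calls of all 5 (adjusted p = 0.0638 to 0.176), and leaving out shRPL6-2 replicate 1 ended all but that of PITHD1 (adjusted p = 0.0594 to 0.0812).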

How the data were processed

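The authors prepared stranded poly-A libraries and sequenced them with paired ends, and groups and replicate numbers were read from the sample titles. The columns of the deposited table carry abbreviated names instead of these titles. Names of knockdown columns begin with Si and those of control columns with NC, and these prefixes are not explained. They were matched by reading each name as control or RPL6, then hairpin and replicate number. RPL6 was low in both knockdown groups, so its values do not show which columns belong to which hairpin. The submitters' processing notes name CASAVA 1.8, HISAT2, StringTie and edgeR with build GRCh38. Not given in the sources used here are the annotation, the program that counted and its strand setting, which leaves overlapping genes and pseudogene copies uncertain. The deposited table holds counts per gene and library, not normalized, and FPKM, which the authors computed from the counts, a gene length and the library total.

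The test was edgeR 4.0.16 under R 4.3.3, run on the counts (filterByExpr at its default settings, TMM, quasi-likelihood fit of all 9 libraries with 1 term per group), with two-sided p-values adjusted by the Benjamini-Hochberg method over 16146 genes and a threshold of 0.05. Standard errors were obtained as the size of the log2 fold change over the root of its F statistic. For GC correction, the trend of log counts on transcript GC content (GENCODE 29, natural spline of 5 degrees of freedom, 99.1% of genes with a value) was removed per library through offsets. The 17 alternative fits were DESeq2 1.42.0, RLE size factors, no filter, only the groups compared, a replicate block, GC correction, GC and length correction, a replicate block with GC correction, and each library left out. The study's limits were applied to the main fit and are not among the 17. The script was tested on simulated data. The members and lists were chosen with earlier results of these data known. Values per library were given for the catalytic subunits and their immune counterparts, for the members of each role that passed in 1 direction with both hairpins (at most 4), where there was none for the 2 of smallest adjusted p, for members called lower, and for at most 3 genes of the other lists chosen likewise. Those of PSMD8, PSMF1, USP14 and MAFK were added after they were seen. Some genes of the other lists are not reported here, and the counts and medians of those lists leave them out. Sequences of promoters are from RefSeq, and hairpin targets from the study's supplement. Total counts of 13638468 to 16149480 per library set the counting precision, and 3 libraries per group limit the tests.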

Additional observations from a re-analysis of the deposited data

How the results depend on the processing

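The shRPL6-2 calls of PSMB6, PSMC3, PSMC6, PSMD1 and PSMG3 were kept in all 17 alternative fits, and no called member reversed its direction in any of them. The counts of called members moved with the settings, and the cause was not tested. In brackets are the shares of all genes called higher and lower in the same fit. The study's limits are a log2 fold change past 1 in size at an unadjusted p below 0.05, applied to the main fit and not counted among the 17. PSMG3, at 0.85 with shRPL6-2, was not past them. With shRPL6-1, where 1 member was higher and 1 lower, there were 6 and 3 in DESeq2 (8.73% and 8.47%), 0 and 0 with no filter (1.13% and 0.786%), 2 and 0 with only the groups compared (2.71% and 2.6%), 0 and 0 with a replicate block (0.118% and 0.0805%), 6 and 1 with GC correction (8.44% and 7.84%), 6 and 1 with GC and length correction (8.51% and 7.67%) and 0 and 0 at the study's limits (3.11% and 4.01%). With shRPL6-2, where 14 were higher and 5 lower, there were 7 and 3 with no filter (4.77% and 4.66%), 4 and 3 with only the groups compared (8.41% and 9.63%), 4 and 3 with a replicate block (6.41% and 6.59%), 5 and 3 with a replicate block and GC correction (9.02% and 9.35%) and 3 and 2 at the study's limits (5.78% and 7.8%). DESeq2 gave 16 and 7 with shRPL6-2 (15.1% and 17.4%), and RLE size factors 15 and 5 (13.9% and 14.5%). GC correction gave 14 and 5 with shRPL6-2 (13.0% and 13.7%), and GC and length correction 10 and 5 (12.4% and 13.1%). With both hairpins, where 1 was higher and 1 lower, there were 5 and 3 in DESeq2 (7.03% and 7.08%), 0 and 0 with no filter (0.962% and 0.608%), 1 and 0 with only the groups compared (2.09% and 1.85%), 0 and 0 with a replicate block (0.0929% and 0.0495%), 4 and 1 with GC correction (6.44% and 5.96%) and 4 and 1 with GC and length correction (6.47% and 5.68%). Between the hairpins GC and length correction called 1 member lower, PSMC6 (log2 fold change -0.68, adjusted p = 0.0487), where 0 were called.

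Leaving out each of the 9 libraries in turn gave 0 to 15 members higher and 0 to 6 lower with shRPL6-1, 3 to 19 higher and 2 to 9 lower with shRPL6-2, and 0 to 14 higher and 0 to 6 lower with both. The shares of all genes then ran from 0.31% to 15.6% and 0.218% to 13.3% with shRPL6-1, 3.96% to 22.0% and 4.43% to 21.6% with shRPL6-2, and 0.268% to 13.8% and 0.151% to 12% with both. The highest counts came without shCont replicate 3. The shRPL6-1 calls of PSMC3 and PSMD1 were lost without shCont replicate 1 or 2, any of the shRPL6-1 replicates or shRPL6-2 replicate 1. With shRPL6-2 the higher calls were 3 without shRPL6-2 replicate 2, 5 without shRPL6-2 replicate 1 and 8 without shRPL6-1 replicate 3, and the lower calls 2 without shRPL6-2 replicate 2. The ratio of the summed share ran from 1.07 to 1.12 with shRPL6-1 and from 1.10 to 1.18 with shRPL6-2 when a library was left out, an alternative added after seeing the data, and was 1.14 and 1.15 as a share of FPKM.

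Correlations between the deviations of same-numbered libraries ran from -0.466 to 0.252, and those of differently numbered libraries from -0.338 to 0.434. Whether the replicate numbers pair the samples is not stated, and with 3 libraries per group these correlations cannot settle it. The main fit does not use the numbers, and the counts with a replicate block are given only in this section. PSMC4 and PSMB3, with 154 and 261 counts in all, are too sparsely counted for small changes to be detected.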
